A study of Mus musculus with 6 samples.

Results

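Immediate early genes are switched on within minutes of a stimulus by proteins that are already in the cell, without new protein synthesis. In neurons the stimulus is synaptic input, which raises calcium and activates CREB and the serum response factor; in glia, vessels and blood cells the same promoters answer growth factors, injury and inflammatory signals. Many encode transcription factors that drive a later wave of genes, and others act at the synapse, on kinase signalling or on RNA decay. In the brain Arc, Npas4, Egr3, Egr4, Homer1, Nptx2 and Inhba are known mainly from active neurons, whereas Fos, Jun, Atf3, Zfp36, Klf2 or Ccn1 are induced in many cell types.

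The 39 genes described here were taken by symbol from a list of activity-induced and stress-induced immediate early genes. All 39 were among the 56748 genes of the count table, and 38 of them were among the 17584 genes with enough counts to be tested. The exception was Fosl1, an AP-1 subunit, with 2 to 7 counts per saline library and 5 to 9 per PLEA library. The list was divided into 7 neuron-specific genes (the 7 named above) and 32 general genes.

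The libraries come from male wild-type C57 mice with a photothrombotic stroke of the left hemisphere, in which an injected agent (100 mg/kg) and 5 minutes of 532 nm laser light clot the cortical vessels. At 2 hours the mice received 100 µL of saline (3 libraries) or of PLEA nanoparticles (3 libraries) by tail vein, and the tissue, described as infarct cortex, belongs to day 3. The labels give no ages, no meaning for PLEA, no hour of collection and no statement that the libraries of a group are separate animals. The p-values therefore set the group difference against the spread between these libraries, which may not be the spread between animals. No uninjured tissue was analysed here, so the levels say nothing of what the stroke itself induced.

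Depth was even, at 16810448 to 17516434 counts per library. Pan-neuronal markers (12 genes) summed to 7932 to 9101 CPM (counts scaled to library size and TMM factors) in saline and to 7524 to 9322 CPM in PLEA, and all 10 cortical excitatory markers were detected. Striatal markers (9 genes) were also present and ranged from 211 CPM in saline replicate 2 to 1888 CPM in PLEA replicate 2, so the pieces held unequal amounts of striatal RNA. Microglia and macrophage markers summed to 207 to 692 CPM in saline and 116 to 348 CPM in PLEA, and meningeal markers to 101 to 142 CPM and 45.8 to 62.1 CPM. Astrocyte markers (8 genes) summed to 4144 to 7039 CPM in saline and 3374 to 4516 CPM in PLEA. In such bulk tissue fewer cells of a type and less RNA per cell cannot be told apart.

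Promoters of immediate early genes are known for cAMP and serum response elements. The 250 bases before the RefSeq start (GRCm38.p6) are shown for Fosb and Npas4, which had the smallest p-values among the 38 tested genes, and for Dusp5 and Dusp1, a pair of phosphatase genes with log2 fold changes of opposite sign. All of these genes were picked for display by their p-values, after the values were seen. Dusp5 and Dusp1 had the smallest p-values among the genes that held a serum or a full cAMP response element. Capitals mark the short form of the cAMP response element (TGACG, or CGTCA on the other strand) in Fosb and Npas4. They mark adjoining serum response elements (CArG boxes) in Dusp5 and the full cAMP response element TGACGTCA in Dusp1. The short form also occurs in Dusp5 (cgtca) and elsewhere in Dusp1 (tgacg), where it is left in lower case. Positions are chr7:19310046-19310295 on the minus strand for Fosb, chr19:4989972-4990221 on the minus strand for Npas4, chr19:53528895-53529144 on the plus strand for Dusp5 and chr17:26508473-26508722 on the minus strand for Dusp1.
Fosb: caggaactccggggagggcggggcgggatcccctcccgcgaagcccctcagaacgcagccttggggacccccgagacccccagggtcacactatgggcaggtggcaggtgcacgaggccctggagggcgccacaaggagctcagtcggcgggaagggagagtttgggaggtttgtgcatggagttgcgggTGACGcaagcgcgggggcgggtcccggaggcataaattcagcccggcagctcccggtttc
Npas4: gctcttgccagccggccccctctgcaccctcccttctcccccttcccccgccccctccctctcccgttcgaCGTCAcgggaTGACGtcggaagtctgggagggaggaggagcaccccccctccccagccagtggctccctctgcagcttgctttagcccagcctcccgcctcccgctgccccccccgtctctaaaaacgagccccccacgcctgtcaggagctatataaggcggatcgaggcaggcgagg
Dusp5: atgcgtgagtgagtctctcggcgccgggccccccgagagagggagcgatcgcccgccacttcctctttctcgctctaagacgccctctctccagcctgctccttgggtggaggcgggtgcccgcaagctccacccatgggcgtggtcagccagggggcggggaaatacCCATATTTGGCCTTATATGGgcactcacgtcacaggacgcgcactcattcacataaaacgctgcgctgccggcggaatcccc
Dusp1: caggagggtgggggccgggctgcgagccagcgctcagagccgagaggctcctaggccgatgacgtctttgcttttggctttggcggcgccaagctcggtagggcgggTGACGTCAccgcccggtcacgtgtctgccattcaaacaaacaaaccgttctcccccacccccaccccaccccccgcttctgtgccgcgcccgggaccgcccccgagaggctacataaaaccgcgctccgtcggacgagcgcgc

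The short element of Fosb begins 60 bases before the start, and those of Npas4 begin 179 and 169 bases before it. The CArG boxes of Dusp5 begin 82 and 72 bases before the start, and the full element of Dusp1 begins 143 bases before it. Promoter sequences were matched for 31 of the 39 genes, some with several starts (39 windows), and a gene counted when any of its windows held the letters. Both strands were searched, and the short element, which the full element contains, was held by 21 of the 31 genes (67.7%), against 19.8% of the 27025 genes in the promoter table. The full element was held by 4 (12.9%; Btg2, Dusp1, Maff and Plk2), against 1.77%, and the serum response element by 3 (9.68%; Dusp5, Egr2 and Zfp36), against 1.62%. The EGR site GCGNGGGCG was in 10 of the 31 (32.3%), against 5.33%, and neither the AP-1 site TGANTCA (7.82% of all genes) nor the nuclear receptor site AAAGGTCA (1.55%) was in any of them. These are letter matches in a short window and not measured binding. Genes not shown that held the full or the serum response element had log2 fold changes of both signs. They were -0.47 (Btg2), -0.10 (Maff) and 0.21 (Plk2) for the full element, and 0.11 (Egr2) and -0.33 (Zfp36) for the serum response element.

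Per length, the 39 genes spanned more than 2 orders of magnitude in level. The zinc finger factor gene Egr1 had the highest mean, 57.3 CPM per kilobase of gene model over the 6 libraries (43.4 to 73.4), followed by the kinase gene Plk2 at 44.8 (33.6 to 51.9), Egr3 at 31.1 (22.4 to 45.5) and Arc at 25.7 (17.9 to 34.7). The ranges of these neighbours overlapped. Among AP-1 genes Junb (23.2 CPM per kilobase), Jund (22.8) and Jun (16.0) stood above Fos (9.98), Fosl2 (3.57) and Fosb (2.40). Npas4 was at 3.81 CPM per kilobase, and Atf3, Maff and Fosl1 were lowest, at 0.895, 0.725 and 0.156.

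**Figure D1:**
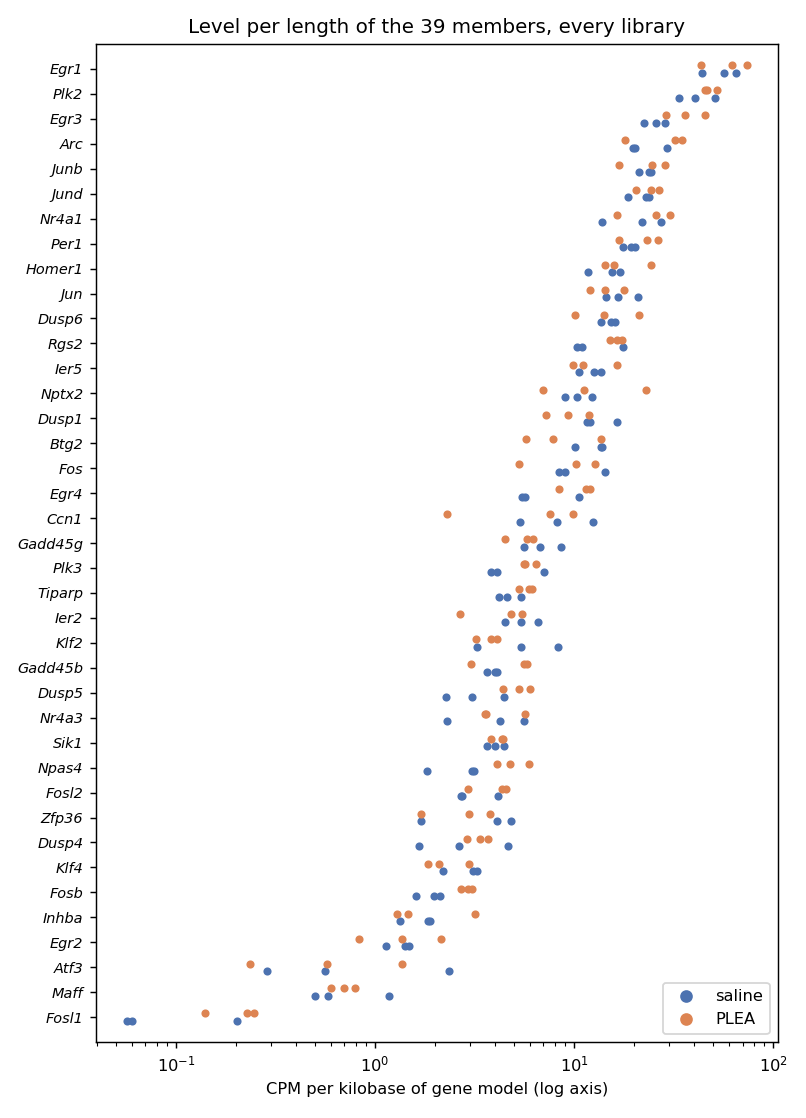
Level of each of the 39 genes in CPM per kilobase of gene model (x axis, logarithmic), 1 point per library, blue for saline and orange for PLEA, ordered by the mean over all libraries. Egr1 is highest at 57.3 and Fosl1 lowest at 0.156, and the colours overlap for all but Fosb, Npas4 and Egr3.

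No gene of the list passed the test between PLEA and saline. By edgeR's quasi-likelihood test, 0 of 38 had an adjusted p under 0.05 (smallest adjusted p = 0.818), where 0% of all 17584 genes did, and DESeq2 and limma voom also called 0 of the 38. At an unadjusted p under 0.05, 4 of 38 were higher in PLEA (Fosb, Npas4, Egr3 and Dusp5), beside 2.28% of all tested genes, and 1 was lower (Dusp1), beside 3.58%. The higher count was 3 to 6 when 1 library was left out. The lower count was 0 without saline replicate 2, PLEA replicate 2 or PLEA replicate 3 and 2 without saline replicate 3 or PLEA replicate 1. All 3 PLEA libraries lay above all 3 saline libraries for 3 of 38 genes (Fosb, Npas4 and Egr3), beside 5.16% of all tested genes, and for 0 of 38 they lay below, beside 5.54%.

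The neuron-specific and the general genes had different medians, which is a description and was not tested. The 7 neuron-specific genes all had positive log2 fold changes, from 0.24 to 0.88, with a median of 0.38. The 31 tested general genes had 19 positive and 12 negative values, from -0.61 to 0.68, with a median of 0.05. The median over all tested genes was -0.01. Without PLEA replicate 1 the neuron-specific median was 0.18, and without PLEA replicate 2 it was 0.67. Moving Egr2, Fosb, Nr4a1, Nr4a3 and Plk2 into the neuronal group gave a median of 0.30 over 12 genes, all positive. It left 0.01 over 26 tested general genes, 14 positive and 12 negative. Each moved gene had a positive value and every negative gene stayed, so the shared sign of the wider group reflects which genes were moved.

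**Figure D2:**
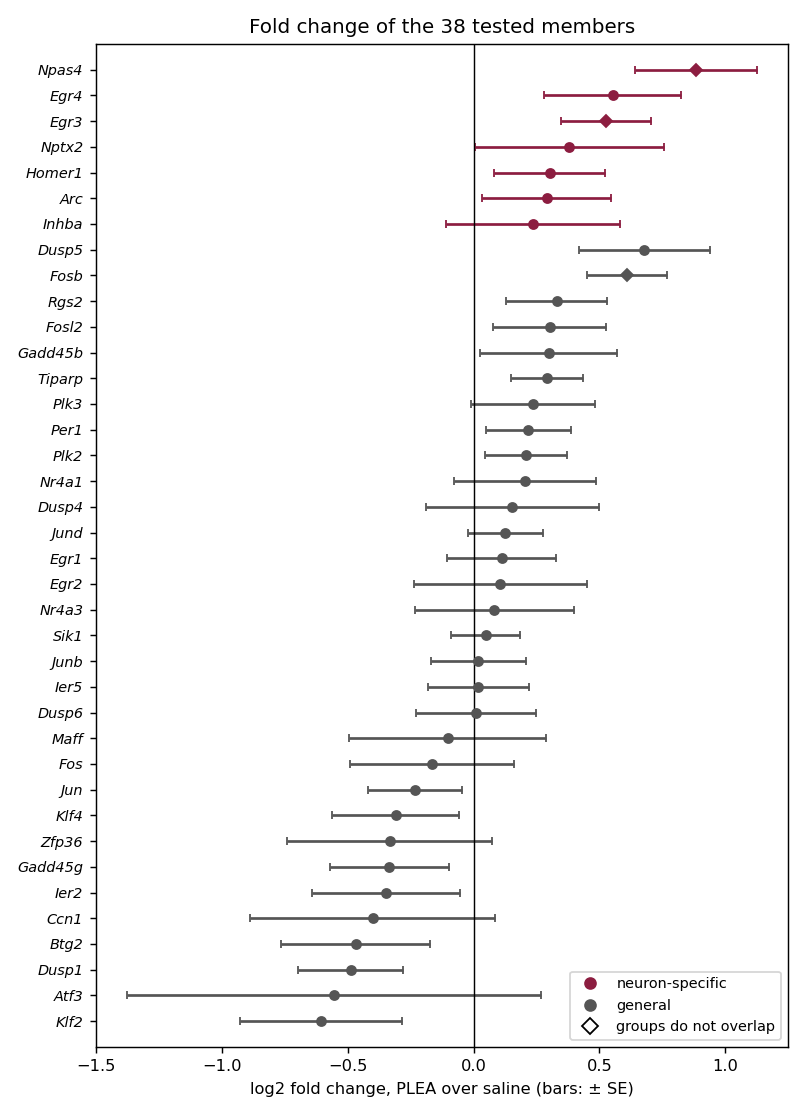
Log2 fold change of PLEA over saline for the 38 tested genes (points) with its standard error (bars), dark red for neuron-specific and grey for general genes; diamonds mark genes whose groups do not overlap. The 7 neuron-specific genes all lie to the right of 0, from 0.24 to 0.88, while the general genes lie on both sides.

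Npas4, a neuron-restricted transcription factor that responds to calcium entry, had the highest fold change of the list. It was at 7.51, 13.0 and 12.7 CPM in saline and at 16.99, 19.8 and 24.6 CPM in PLEA. Each PLEA library was above every saline library, and saline replicate 1 was the lowest. The means were 11.1 ± 3.10 CPM (SD, n = 3) and 20.5 ± 3.85 CPM (SD, n = 3), a log2 fold change of 0.88 (SE 0.24, edgeR adjusted p = 0.818). Across the alternative analyses the value lay between 0.68 and 1.01.

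Fosb, an AP-1 subunit whose products accumulate with repeated neuronal activity, was at 10.0, 12.3 and 13.2 CPM in saline and at 18.3, 16.9 and 19.1 CPM in PLEA. The groups were apart, and the libraries of each group were close together (within-group SD 0.16 on the log2 scale, against a median of 0.24 over all tested genes). Its log2 fold change was 0.61 (SE 0.16, edgeR adjusted p = 0.818), with 0.51 to 0.70 across the alternatives. The related gene Fos was at 19.7, 33.6 and 21.2 CPM in saline and at 30.1, 12.4 and 23.9 CPM in PLEA. Its groups overlapped between 19.7 and 30.1 CPM, with saline replicate 2 above that stretch and PLEA replicate 2 below it, and the log2 fold change was -0.17 (SE 0.33), which changed sign without saline replicate 2 (0.11), without PLEA replicate 2 (0.12) and with the striatal marker level as a covariate (0.15).

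Egr3, a zinc finger factor of active neurons, was at 113, 98.6 and 126 CPM in saline and at 201, 127 and 158 CPM in PLEA. The groups were apart by little, with PLEA replicate 2 at 127 CPM and saline replicate 3 at 126 CPM. Its log2 fold change was 0.53 (SE 0.18, edgeR adjusted p = 0.818), and 0.34 without PLEA replicate 1. Its unadjusted edgeR p was 0.0734 without PLEA replicate 1 and 0.0525 without saline replicate 2. Egr4, of the same family, was at 12.2, 11.8 and 22.7 CPM in saline and at 24.5, 18.1 and 25.8 CPM in PLEA. Saline replicate 3 lay within the PLEA range, and the log2 fold change of 0.55 (SE 0.27) was 0.91 without that library, 0.42 without saline replicate 1, 0.39 without saline replicate 2 and 0.38 with the striatal covariate.

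The other EGR genes had log2 fold changes nearer to 0. Egr1 was at 195, 292 and 254 CPM in saline and at 329, 194 and 277 CPM in PLEA (log2 fold change 0.11, SE 0.22). PLEA replicates 1 and 2 were its highest and its lowest library. Egr2, also known from myelinating and myeloid cells, lay at 3.87, 5.03 and 4.80 CPM in saline and at 7.28, 2.83 and 4.64 CPM in PLEA (log2 fold change 0.11, SE 0.34). Without PLEA replicate 1 both values turned negative, to -0.07 for Egr1 and -0.30 for Egr2, and Egr1 was also at -0.02 without saline replicate 1.

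Arc, which acts at synapses in the removal of AMPA receptors, was at 62.0, 89.1 and 60.6 CPM in saline and at 98.2, 54.7 and 106 CPM in PLEA. PLEA replicate 2 was its lowest library and the groups overlapped (log2 fold change 0.29, SE 0.26), with 0.12 without PLEA replicate 3 and 0.53 without PLEA replicate 2. Homer1, a scaffold of metabotropic glutamate receptors, was at 203, 140 and 186 CPM in saline and at 291, 190 and 172 CPM in PLEA. Its activity-induced short form and its constitutive long forms share 1 count, so the induced form was not measured by itself. The log2 fold change of Homer1 was 0.30 (SE 0.22), with 0.02 without PLEA replicate 1 and 0.45 without PLEA replicate 3.

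The secreted neuronal products rested on the same library. Nptx2, a pentraxin that clusters AMPA receptors, was at 22.8, 26.3 and 31.3 CPM in saline and at 58.4, 17.7 and 28.6 CPM in PLEA. Inhba, the activin A subunit, was at 11.7, 8.50 and 12.0 CPM in saline and at 20.3, 8.22 and 9.39 CPM in PLEA. For both genes PLEA replicate 1 was far above the other libraries and PLEA replicate 2 was the lowest. Their log2 fold changes of 0.38 (SE 0.38) and 0.24 (SE 0.34) turned to -0.22 and -0.30 without PLEA replicate 1. The span of Inhba, introns included, overlaps the opposite-strand pseudogene B230303A05Rik over 11581 bases, and the strand setting of the counts is not given in the sources used here.

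**Figure D3:**
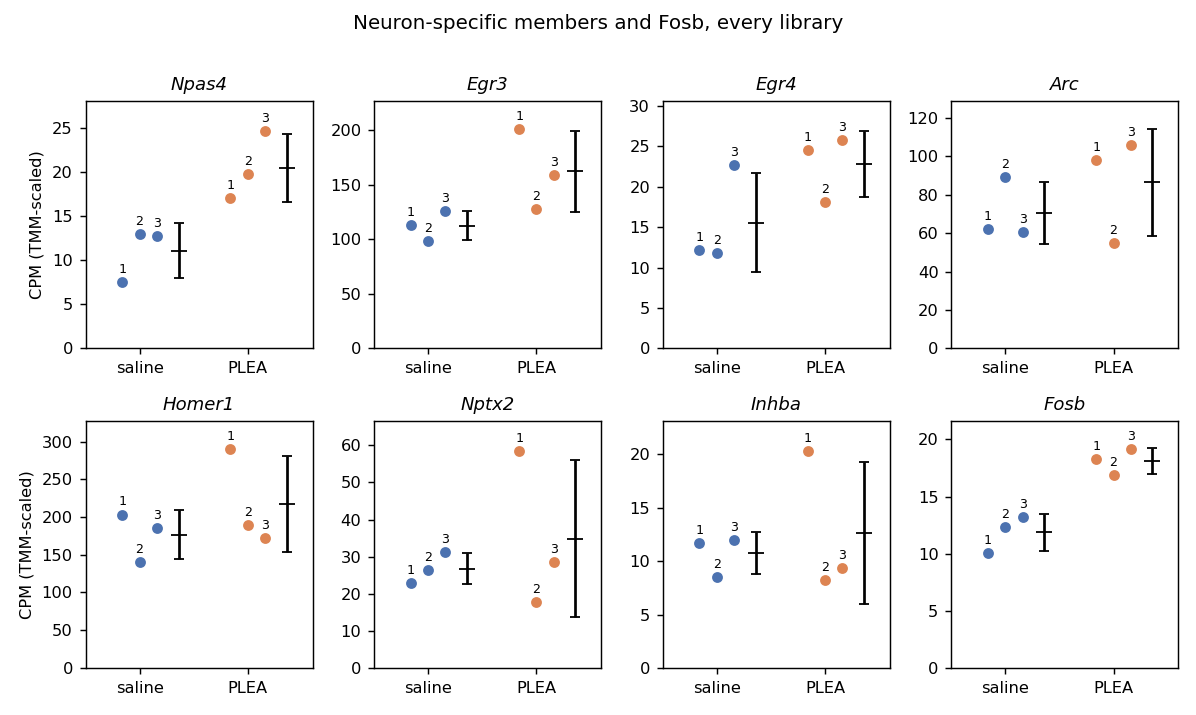
CPM of the 7 neuron-specific genes and Fosb in every library (points, numbered by replicate; blue saline, orange PLEA), with the group mean and SD beside them in black (n = 3). Npas4, Egr3 and Fosb have all PLEA points above all saline points, whereas Nptx2, Inhba and Homer1 have 1 high point, PLEA replicate 1.

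In PLEA replicate 1 the neuron-specific genes were on average 0.58 above their own means on the log2 scale, against 0.22 in PLEA replicate 3, -0.18 in PLEA replicate 2 and -0.32, -0.28 and -0.02 in saline replicates 1 to 3. The same library had the highest sum of cortical excitatory markers, 2386 CPM, where the others had 1432 to 1973 CPM, and the highest pan-neuronal sum, 9322 CPM. Elsewhere the orders differed in part. Saline replicate 1, lowest in the neuron-specific genes (-0.32), had the next-highest cortical sum, 1973 CPM. PLEA replicate 3, at 0.22, had the lowest pan-neuronal sum, 7524 CPM. Saline replicate 2, at -0.28, had the lowest cortical sum, 1432 CPM, but the next-highest pan-neuronal sum, 9101 CPM. PLEA replicate 2, at -0.18, was low in both sums (1453 and 7902 CPM). Saline replicate 3, at -0.02, was between in both (1886 and 8973 CPM). Over all libraries, the 8 astrocyte markers had log2 fold changes below 0, with a median of -0.54. Of them, 4 had an unadjusted edgeR p under 0.05, beside 3.58% of all tested genes lower at that p. For 3 of the 8 the groups were apart, beside 5.54% of all tested genes with PLEA lower. The 7 oligodendrocyte markers were also below 0 (median -0.21, 0 at that p). The 9 striatal markers were all above 0 (median 0.53, 0 at that p), with a median within-group SD of 1.26 on the log2 scale. Of the 12 pan-neuronal markers 3 were above 0 and 9 below (median -0.10). Of the 10 cortical excitatory markers 6 were above 0 and 4 below (median 0.06). The part of these markers in the result was not tested. With counts scaled to the pan-neuronal markers in place of TMM factors, the neuron-specific median was 0.41 and the median of all tested genes 0.07, so both medians were higher under that scaling. With the striatal marker level as a covariate, which was added once the values were known, the median was 0.46.

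Among the inhibitors of kinase signalling, the nuclear phosphatase genes Dusp5 and Dusp1 had unadjusted p-values under 0.05 in opposite directions. Dusp5, which inactivates ERK, was at 5.63, 10.98 and 7.63 CPM in saline and at 10.9, 13.1 and 14.8 CPM in PLEA. Only PLEA replicate 1 and saline replicate 2 crossed, and the log2 fold change was 0.68 (SE 0.26, edgeR adjusted p = 0.818). It lay between 0.48 and 0.96 with 1 library left out, and its unadjusted edgeR p was 0.0739 or 0.0823 when saline replicate 1 or 3 was left out and 0.0676 or 0.109 when PLEA replicate 2 or 3 was. Dusp1, which inactivates stress kinases, was at 39.5, 54.0 and 38.5 CPM in saline and at 39.4, 23.9 and 30.9 CPM in PLEA.

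The Dusp1 groups overlapped through PLEA replicate 1, and the log2 fold change was -0.49 (SE 0.21, edgeR adjusted p = 0.818). Leaving out saline replicate 2 gave -0.32, leaving out PLEA replicate 2 gave -0.33, and the striatal covariate gave -0.27. Dusp1 shares 640 bases with Ergic1 on the opposite strand, so without strand the reads of these genes cannot be told apart there. For the ERK phosphatase genes the log2 fold change was 0.15 (SE 0.34) for Dusp4 and 0.01 (SE 0.24) for Dusp6. Among the kinases, Plk2 had 0.21 (SE 0.16), Plk3 0.23 (SE 0.25) and Sik1, which restrains CREB signalling, 0.05 (SE 0.14). Sik1 ranged only from 18.8 to 22.9 CPM over the 6 libraries. Rgs2, which shortens G-protein signals, was at 37.4, 39.9 and 63.5 CPM in saline and at 62.9, 54.7 and 59.5 CPM in PLEA, so that saline replicate 3 was its highest library.

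Genes induced by stress in many cell types had values on both sides of 0. The 8 tested AP-1 and related genes had 4 positive and 4 negative values and a median of -0.04. Jun was at 66.9, 52.9 and 46.0 CPM in saline and at 56.9, 38.3 and 45.8 CPM in PLEA (log2 fold change -0.23, SE 0.19), Junb had 0.02 (SE 0.19), Jund 0.13 (SE 0.15) and Fosl2 0.30 (SE 0.22). Junb overlaps the opposite-strand gene Prdx2, whose mean count was higher (1867 against 921), over 351 bases. Atf3, an injury-induced factor, was at 5.05, 1.21 and 0.616 CPM in saline and at 2.95, 0.510 and 1.23 CPM in PLEA. Replicate 1 was the highest library in each group, and without saline replicate 1 the log2 fold change of -0.55 (SE 0.82) turned to 0.77.

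Klf2, Klf4, Ccn1 and Zfp36, which are prominent in vessels, matrix signalling and cytokine control, had negative values, none past the test. They were not a group set beforehand and were put together after their values were seen. Their shared sign reflects that choice. Klf2, a factor of endothelium under flow, was at 15.4, 9.94 and 6.03 CPM in saline and at 7.57, 7.08 and 5.93 CPM in PLEA (log2 fold change -0.61, SE 0.32). The value was -0.21 without saline replicate 1 and -0.90 without saline replicate 3. Klf4 had -0.31 (SE 0.25). Ccn1, a matrix-bound growth signal, was at 25.2, 16.6 and 10.8 CPM in saline and at 19.9, 4.65 and 15.3 CPM in PLEA (log2 fold change -0.40, SE 0.49), and Zfp36, which directs cytokine mRNA to decay, had -0.33 (SE 0.41). Both were highest in saline replicate 1. Endothelial markers (7 genes) were also highest there, at 299 CPM, against 186 and 207 CPM in the other saline libraries and 133 to 192 CPM in PLEA. Astrocyte, microglia and macrophage, mural and meningeal markers were highest in that library as well, at 7039, 692, 289 and 142 CPM. Oligodendrocyte markers were highest in saline replicate 2, at 5520 CPM. At an unadjusted edgeR p under 0.05, 3 of the 7 endothelial markers were lower in PLEA, beside 3.58% of all tested genes. Their median log2 fold change was -0.55. Of the 7 meningeal markers 6 were lower at that p (median -1.45). The same held for 4 of the 8 astrocyte markers (median -0.54) and 1 of the 8 microglia and macrophage markers (median -0.73). It also held for 1 of the 5 mural markers (median -0.35). The part of these cell type markers in the values of the 4 genes was not tested.

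Of the growth and repair genes, Btg2, an antiproliferative factor, was at 37.5, 37.98 and 27.6 CPM in saline and at 37.4, 15.7 and 21.4 CPM in PLEA (log2 fold change -0.47, SE 0.30). The value was -0.90 without PLEA replicate 1, -0.23 without PLEA replicate 2 and -0.24 with the striatal covariate. Gadd45b, a neuronal and stress gene linked to DNA demethylation, had 0.30 (SE 0.27), and its relative Gadd45g -0.34 (SE 0.24). Ier2 had -0.35 (SE 0.29) and Ier5 0.02 (SE 0.20). Tiparp, an ADP-ribosyltransferase, stood at 18.3 to 23.5 CPM in the saline libraries and at 23.0 to 26.9 CPM in the PLEA libraries (log2 fold change 0.29, SE 0.14). The orphan nuclear receptor genes Nr4a1 and Nr4a3 had 0.20 (SE 0.28) and 0.08 (SE 0.32), both lowest in saline replicate 1.

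The genes varied more between libraries of a group than most others. The median within-group SD on the log2 scale was 0.37 over the 38 genes and 0.24 over all tested genes, and 33 of 38 were above the latter, although their median level was somewhat higher (4.5 against 4.0 log2 CPM). Atf3 (SD 1.30), Ccn1 (0.89), Zfp36 (0.70) and Nptx2 (0.63) varied most, and Sik1 (0.13), Tiparp (0.15) and Fosb (0.16) least. PLEA replicate 2 was the lowest library for 18 of the 38 genes (47.4%), where it was lowest for 19.1% of all tested genes, and PLEA replicates 1 and 3 were the highest for 10 each (26.3%), where they were highest for 11.3% and 13.8%. Saline replicate 1 was lowest for 11 genes and highest for 8.

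**Figure D4:**
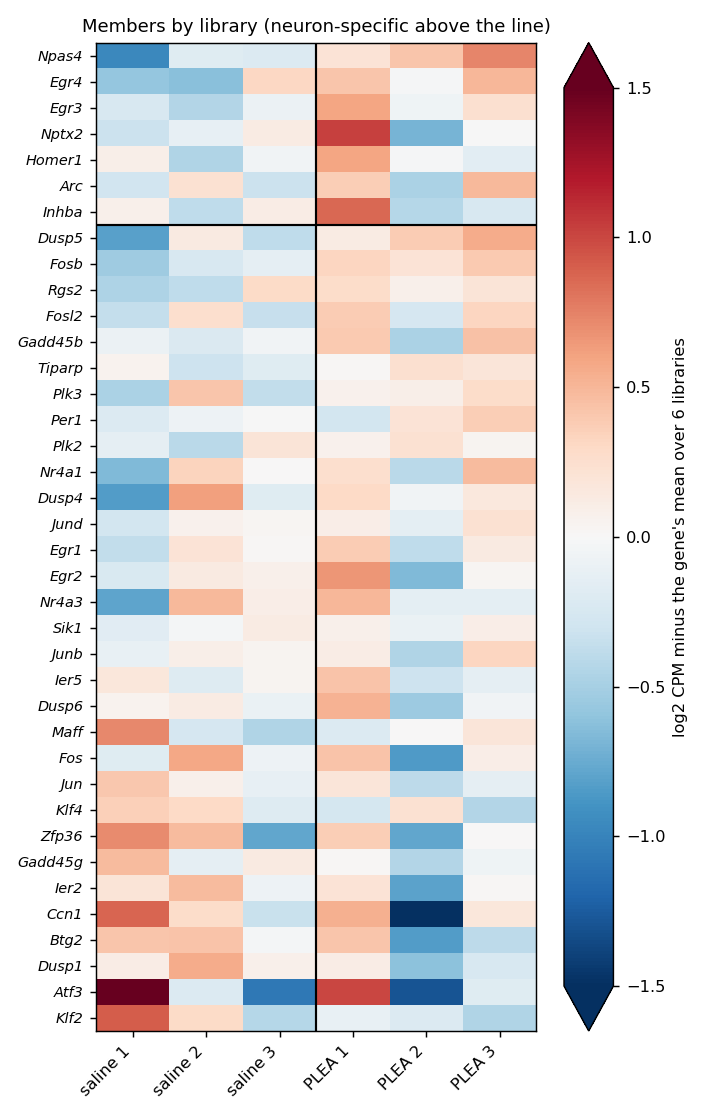
Difference of log2 CPM from each gene's mean over the 6 libraries (colour, red higher and blue lower) for the 38 tested genes, with neuron-specific genes above the line. Colours beyond 1.5 are drawn at the end of the scale. PLEA replicate 2 is the lowest library for 18 genes, among them Fos, Btg2, Ccn1 and Atf3, and PLEA replicates 1 and 3 are each the highest for 10.

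The constitutive activators of these genes include CREB, the serum response factor, MEF2 factors, ERK kinases and NMDA receptor subunits. Their log2 fold changes ran from -0.22 to 0.35, with 14 positive and 7 negative. Of 21 listed, 21 were tested, 0 passed in edgeR and 0 had an unadjusted p under 0.05. Groups were apart for 1 of them (Grin2a, higher in PLEA), beside 5.16% of all tested genes. Their median log2 fold change was 0.06. The smallest p-values belonged to the SRF coactivator gene Mrtfa (0.35, SE 0.20), the NMDA receptor genes Grin1 (0.27, SE 0.16) and Grin2a (0.19, SE 0.11) and the serum response factor gene Srf (0.21, SE 0.14).

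Other activity-induced genes of neurons had a median of 0.06 over 16 tested (1 of 17 listed symbols was not matched), with 12 positive values. At an unadjusted edgeR p under 0.05, 1 was higher and 0 lower, beside 2.28% and 3.58% of all tested genes. That gene was Ptgs2, which encodes COX-2 and is induced in active cortical neurons as well as in inflamed tissue, at 10.4, 10.1 and 9.29 CPM in saline and at 16.7, 16.8 and 15.1 CPM in PLEA. Its groups were apart (log2 fold change 0.70, SE 0.15, edgeR adjusted p = 0.818). Trib1, a kinase regulator, had 0.51 (SE 0.23), the secreted neuropeptide precursor gene Vgf 0.52 (SE 0.31) and Mfap3l -0.44 (SE 0.26).

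Other early genes of injury and growth factor signalling had a median of 0.08 over 20 tested, with 14 positive values. At an unadjusted edgeR p under 0.05, 1 was higher and 0 lower, beside 2.28% and 3.58% of all tested genes. Cdkn1a, a cell cycle inhibitor and p53 target, was at 27.7, 9.71 and 18.6 CPM in saline and at 32.5, 70.1 and 35.0 CPM in PLEA (log2 fold change 1.30, SE 0.41, edgeR adjusted p = 0.818). Its groups were apart, with PLEA replicate 2 far above the rest. Rhob had 0.26 (SE 0.14), Myc 0.40 (SE 0.26) and the small GTPase gene Gem -0.54 (SE 0.30). For Gem all PLEA libraries (1.39, 1.08 and 1.12 CPM) lay below all saline libraries (1.76, 1.68 and 1.78 CPM), at 19 to 30 counts per library.

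Per1 is at once an immediate early gene and a part of the circadian clock. It was at 98.7, 109 and 114 CPM in saline and at 94.1, 131 and 148 CPM in PLEA, with PLEA replicate 1 lowest (log2 fold change 0.22, SE 0.17). The value was 0.37 without that library and 0.08 without PLEA replicate 3. Of the 12 other clock genes tested, 0 passed in edgeR. At an unadjusted edgeR p under 0.05, 1 was higher and 3 were lower, beside 2.28% and 3.58% of all tested genes. Dbp, a clock output factor, was at 51.5, 38.7 and 52.6 CPM in saline and at 32.4, 34.6 and 32.1 CPM in PLEA (log2 fold change -0.53, SE 0.14). The repressor genes Nr1d1 and Nr1d2 had -0.44 (SE 0.16) and -0.43 (SE 0.12), and the activator gene Arntl (BMAL1) had 0.32 (SE 0.14), with edgeR adjusted p = 0.818 for each of the 4. For these 4 genes the groups were apart, for Nr1d1 by little (105.2 CPM in saline replicate 1 and 104.5 CPM in PLEA replicate 1). Groups were apart in 5.16% (PLEA higher) and 5.54% (PLEA lower) of all tested genes. The part of collection time in the values of the listed genes was not tested.

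**Figure D5:**
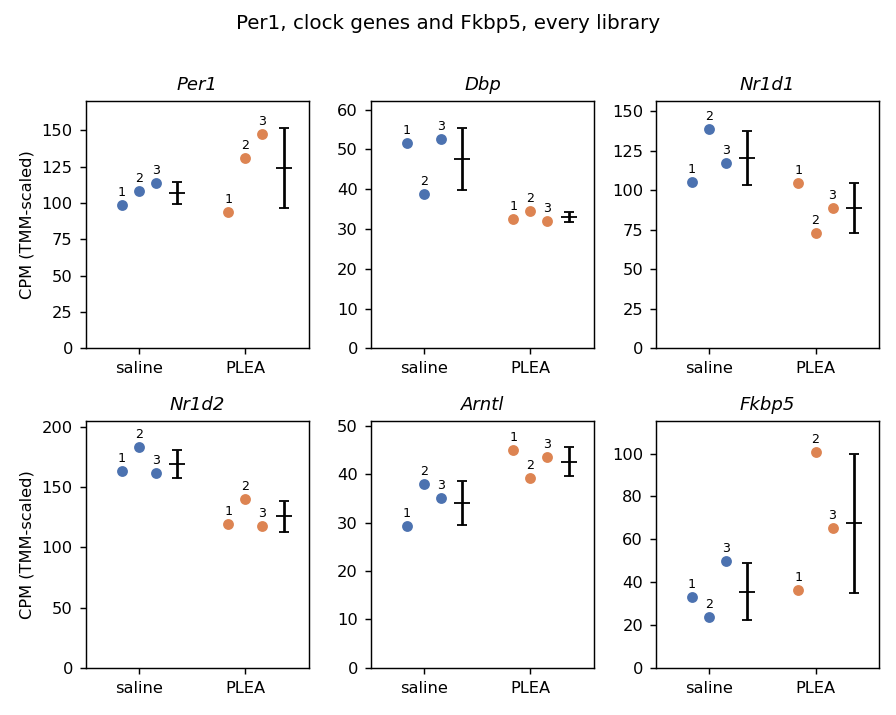
CPM of Per1, 4 other clock genes and the glucocorticoid target Fkbp5 in every library (points, numbered by replicate; blue saline, orange PLEA), with the group mean and SD in black (n = 3). Dbp, Nr1d1 and Nr1d2 have all PLEA points below and Arntl all PLEA points above the saline points, while Per1 and Fkbp5 overlap.

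Per1 and several other members also respond to glucocorticoids. All 8 genes of a separate list of glucocorticoid targets had positive values, with a median of 0.31. That list holds none of the members, so its shared sign does not cover members that respond to glucocorticoids. By the unadjusted edgeR p 1 of them was higher and 0 lower, beside 2.28% and 3.58% of all tested genes. Fkbp5, a receptor chaperone, was at 32.9, 23.9 and 50.0 CPM in saline and at 36.3, 101 and 65.4 CPM in PLEA (log2 fold change 0.92, SE 0.38, edgeR adjusted p = 0.818). Klf9 had 0.32 (SE 0.16), Sult1a1 0.91 (SE 0.48) and Zbtb16 0.55 (SE 0.29). PLEA replicate 2 was the highest library for each of these 4, which had the smallest p-values of their list. It was highest for 19.6% of all tested genes. It was the lowest for 18 of the 38 immediate early genes, beside 19.1% of all tested genes, but not for Per1 (131 CPM). The part of glucocorticoids in these values was not tested.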

How the data were processed

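Gene counts (whole reads per gene) were deposited for 6 libraries in 1 table by the authors, with gene lengths. The labels name the GRCm38 (mm10) build, but 2 of the 39 genes had the coordinates of the GENCODE M21 annotation of that build, so deposited positions are not printed; the aligner, the counter and the strand setting are not stated there. The members and the gene lists were chosen with earlier results of these data known. Genes passing filterByExpr (17584) were fitted by group with edgeR 4.0.16 (TMM factors, quasi-likelihood F test, R 4.3.3), with Benjamini-Hochberg adjustment over all of them. CPM scales counts to the tested genes' total times the TMM factor, and CPM per kilobase divides by the deposited length. Log2 CPM used a prior count of 2, and SE is the absolute log2 fold change over the root of F. Alternatives used DESeq2 1.42.0, limma 3.58.1 (voom), other scalings and filters, a replicate block, 1 library left out at a time and a striatal covariate added after seeing the data. Scripts were tested on simulated data. Values per library were given for the neuron-specific genes, for general genes of the 39 with an unadjusted p under 0.05 or groups apart, and for others where a library stood apart. From each other list up to 4 genes with the smallest p were named, some by fold change only. No pair of libraries within a group agreed within sampling noise. Promoter sequences were RefSeq's.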

Additional observations from a re-analysis of the deposited data

How the results depend on the processing

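RLE, upper-quartile and neuron-marker scaling moved the median of all genes from -0.0051 to -0.0105, 0.0075 and 0.0731. No member passed an adjusted p under 0.05 in any of the 15 alternatives, while over all genes DESeq2 called 3 genes up and 36 down, and the edgeR fit of unfiltered counts 7 and 31; leaving out 1 library gave 0 higher and 0 to 1 lower. Members lower at an unadjusted p under 0.05 numbered 3 without the filter, 0 with scaling to neuron markers, 0 with the striatal covariate and 0 to 2 with 1 library left out. The neuron-specific median was 0.18 to 0.67 with 1 library left out. Of the 38 genes, 16 changed sign in at least 1 alternative. Replicate numbers recur in both groups, but the deviations of same-numbered libraries correlated at 0.373, 0.173 and -0.0176 across genes, and saline replicate 3 correlated best with PLEA replicate 2 (0.230), so the numbers were not taken as pairs. With a replicate block, edgeR called 0 genes, as without it, by the unadjusted p 5 members were higher and 1 was lower (Btg2, in place of Dusp1, which missed that threshold), and Junb, Ier5 and Dusp6 were at -0.0115, -0.0077 and -0.0485. With limma voom the same genes were at -0.0141, -0.0095 and -0.0540, and Dusp6 was at -0.0019 without the filter. With the striatal covariate Fos was at 0.15 and Zfp36 at 0.0809. With 1 library left out, log2 fold changes ran as follows: Fos from -0.46 to 0.12, Junb from -0.16 to 0.21, Egr1 from -0.0746 to 0.30, Egr2 from -0.30 to 0.38, Nr4a1 from -0.0175 to 0.44, Nr4a3 from -0.19 to 0.39, Ier5 from -0.24 to 0.16, Dusp4 from -0.13 to 0.62. The others were Dusp6 from -0.32 to 0.23, Nptx2 from -0.22 to 0.70, Inhba from -0.30 to 0.47, Sik1 from -0.0101 to 0.11, Maff from -0.34 to 0.38, Atf3 from -1.42 to 0.77, Ccn1 from -0.83 to 0.0053. The cause of these changes was not tested. Fosl1 gave no tested value, and low counts limit Atf3, Maff and Egr2.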
